A study of Homo sapiens with 9 samples.

Results

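RNA-seq libraries of 293T cells that overexpressed 1 of 4 transcription factors (TFs) were compared by the family of the factor. EGR1 and ZBTB7A, which bind DNA through C2H2 zinc fingers, formed the zinc finger side. NRF1 and E2F4, which do not belong to that family, formed the other side. These 4 of the 9 libraries of the series belong to the class that the study calls CLB_TFs, for conserved lncRNA-binding TFs, and each side held 2 libraries with each TF as a replicate. The genes described are those for which both libraries of 1 side lay apart from both of the other.

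293T is a transformed human embryonic kidney line. Each library came from cells transfected with the lentiviral expression plasmid pLV[Exp]-EGFP-EF1A carrying the open reading frame of NRF1, E2F4, EGR1 or ZBTB7A, so that every factor was driven by the constitutive EF1A promoter and the plasmid also encoded EGFP. The other libraries, used here only for placement, were 4 control TF libraries (TFCP2, NKX2-8, RORA or HOXA11 in the same plasmid) and 1 control library, called blank in the labels and an empty control plasmid in the methods. Every condition had 1 library, so the spread on a side is that between 2 different TFs, not between repeats of 1 condition. Library totals ran from 14177970 counts with ZBTB7A to 18915400 in the control. Each inserted TF was at its highest in its own library, for instance 2763 CPM of NRF1 against 27.5 to 31.3 CPM elsewhere and 6389 CPM of EGR1 against 18.2 to 26.6 CPM elsewhere, and all 8 inserted TFs were left out of what follows. The summed level of 8 embryonic kidney markers was 177 to 204 CPM over the 9 libraries. The leukocyte, endothelial, hepatocyte and erythroid lists each summed to at most 4.94 CPM in any library. Fibroblast markers summed to 28.3 to 44.5 CPM and keratinocyte markers to 12.45 to 15.88 CPM.

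EGR1 is an immediate early factor that growth signals and neuronal activity induce, and it binds GC-rich promoters. ZBTB7A couples zinc fingers to a BTB domain, acts mostly as a repressor and is known for silencing fetal globin genes. NRF1 binds palindromic GC-rich sites in many CpG island promoters and is known for driving nuclear genes of the respiratory chain. E2F4 acts with pocket proteins at cell cycle promoters, mainly as a repressor in resting cells, and takes part in the multiciliated cell programme.

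Most genes that separated the sides by a wide margin were higher with NRF1 and E2F4. A gene was called apart when the lower library of the higher side was at least 2-fold above the higher library of the other side in CPM (counts relative to library size after TMM scaling, with a prior count of 2 that pulls the fold of low genes toward 1) and both libraries of the higher side reached 1 CPM. Of 13981 genes at 1 CPM in both libraries of a side, 49 (0.35%) were apart with NRF1 and E2F4 higher and 1 (0.00715%) with the zinc finger libraries higher. Genes below 1 CPM in a library of the lower side entered through the higher side only, so that the filter fixed their direction. Among the 49 these include the 17 with under 10 counts in both zinc finger libraries. The number of all such genes was not computed. Any gap at all was met by 2774 genes (19.8%) with NRF1 and E2F4 higher and by 2474 (17.7%) with the zinc finger side higher, so the sides were near balance in small differences and uneven in large ones. At a gap of 1.5-fold the counts were 158 (1.13%) and 20 (0.143%). No gene with the zinc finger side higher reached a gap of 2.5-fold, which 26 genes reached in the other direction.

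**Figure D1:**
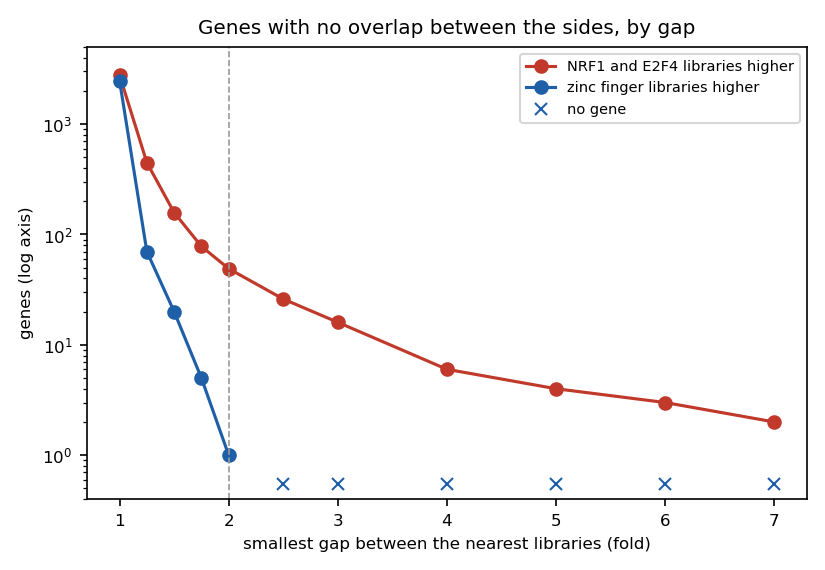
Number of genes (log axis) for which the 2 libraries of a side do not overlap the other 2, against the smallest gap required between the nearest libraries (fold). The counts start close together, 2774 and 2474 with no minimum gap, and part to 49 and 1 at the dashed line at 2-fold, and crosses mark gaps that no gene of the zinc finger direction reached.

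NRF1 and E2F4 differed from each other at least as widely as from the zinc finger libraries. The quasi-likelihood test of edgeR, fitted on the 4 libraries over 15260 genes, called 0 genes (0%) at an adjusted p below 0.05 after Benjamini-Hochberg adjustment. At an unadjusted p below 0.05 it held 729 genes (4.78%) with NRF1 and E2F4 higher and 139 (0.911%) with the zinc finger side higher. Between NRF1 and E2F4, on 1 side, 933 genes were at least 2-fold higher with NRF1 and 202 with E2F4, whereas between E2F4 and EGR1, on different sides, the counts were 407 and 304. EGR1 and ZBTB7A were the most alike of the 6 pairs, with a median absolute log2 difference of 0.123 against 0.142 to 0.197 for the others. An exact permutation test of 2 libraries against 2 cannot go below p = 0.33, so none was run for single genes, and folds below are descriptions of these libraries.

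The 49 genes were low in the zinc finger libraries and in most of the other libraries. All 5 remaining libraries (the control and the 4 control TFs) lay below both NRF1 and E2F4 for 48 of them, the exception being an lncRNA without a symbol. Both NRF1 and E2F4 were at least 2-fold above the control library for 42 genes, while EGR1 and ZBTB7A were both at least 2-fold above it for 9 and both 2-fold below it for 0. The median log2 difference from the control was 2.47 with NRF1, 2.75 with E2F4, 0.40 with EGR1 and 0.56 with ZBTB7A. The rule picked genes high in NRF1 and E2F4, so this place of the other libraries is a description. Levels were low throughout, with the lower of NRF1 and E2F4 at a median of 2.67 CPM and the highest value at 28.6 CPM, and 17 of the genes had under 10 counts in both zinc finger libraries. The 95% counting interval of the ratio between the nearest libraries stayed above 1 for 45 of the 49. In bulk RNA, more cells that express a gene and more RNA per cell cannot be told apart.

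The 12 protein-coding genes with the widest gap had gaps of 3.16-fold to 7.77-fold. CMPK2, a mitochondrial nucleotide kinase that interferon induces, had 41 counts with NRF1 and 32 with E2F4 against 2 with EGR1 and 1 with ZBTB7A. The control had 1 count, and among the control TFs RORA had 7 and the others 1 or 2. Both NRF1 and E2F4 thus stood above every other library, at a gap of 7.77-fold and a log2 fold change (zinc finger minus NRF1 and E2F4) of -4.37 ± 0.60 (SE). Of 11 interferon genes at 1 CPM on a side, 1 (9.1%) was without overlap in the direction of CMPK2 and 2 (18.2%) were in the opposite direction, beside 19.8% and 17.7% of all genes. The 1 in the direction of CMPK2 reached 1 CPM through NRF1 and E2F4 only, so that the filter fixed its direction.

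ESAM, an adhesion molecule of endothelial tight junctions, lies on chromosome 11 at 124622479-124632186 (GRCh37, minus strand). It measured 16.7 CPM with NRF1 and 28.6 CPM with E2F4 against 1.63 CPM with EGR1 and 2.23 CPM with ZBTB7A. The control stood at 1.42 CPM and the control TFs at 1.33 to 3.05 CPM, so the zinc finger libraries lay among the others. Its log2 fold change was -3.56 ± 0.33 (SE) and its adjusted p of 0.215 in the quasi-likelihood test was the smallest of the 49. With all 8 TF libraries in the fit, which adds the spread of the control TFs, the adjusted p of ESAM was 0.00655. The list of endothelial markers summed to 3.30 CPM with NRF1, 0.451 CPM with E2F4, 1.07 CPM with EGR1, 0.765 CPM with ZBTB7A and 0.109 CPM in the control, an order unlike that of ESAM.

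CHRDL2, a secreted BMP antagonist of the chordin family, showed a graded pattern. It measured 6.54 CPM with NRF1 and 4.96 CPM with E2F4, then 0.628 CPM with EGR1 and 0.417 CPM with ZBTB7A. The control was at 0.0547 CPM, from 1 count, and the control TFs at 0.0667 to 0.243 CPM. The sides differed by -3.43 ± 0.39 (SE) in log2, and all 5 other libraries lay below the zinc finger libraries as well. That last step rested on few counts, with 6 for ZBTB7A against 4 for RORA.

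NAV3, a microtubule-associated neuron navigator, had 28 counts with NRF1 and 34 with E2F4 against 4 with EGR1 and 2 with ZBTB7A, and the control had 4. The homeobox gene GSX1, a factor of neural progenitors, had 23 counts with NRF1 and 20 with E2F4 and at most 3 in any other library. KL encodes Klotho, the coreceptor for FGF23 in the kidney tubule. It had 16 counts with NRF1, 20 with E2F4 and 2 in each zinc finger library, and it was at 0 in the control and in all 4 control TF libraries. A count of 0 allows up to 3, so for KL the zinc finger libraries were not distinguishable from the others.

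ADAMTSL3, a matrix glycoprotein, measured 3.49 CPM with NRF1, 14.6 CPM with E2F4, 0.566 CPM with EGR1 and 0.904 CPM with ZBTB7A. NRF1 and E2F4 themselves differed 4.18-fold there, the widest difference within the side among the 12. The synaptic adhesion protein CLSTN2 (calsyntenin) measured 7.74, 10.7, 2.14 and 2.09 CPM in the order NRF1, E2F4, EGR1 and ZBTB7A. LGI3, a secreted leucine-rich repeat protein of neurons, measured 10.8, 8.05, 2.26 and 2.16 CPM in that order, and both genes had the zinc finger libraries within 1.2-fold of each other. The calcium-activated chloride channel ANO2 had 34 and 32 counts against 2 and 7, with 7 in the control.

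**Figure D2:**
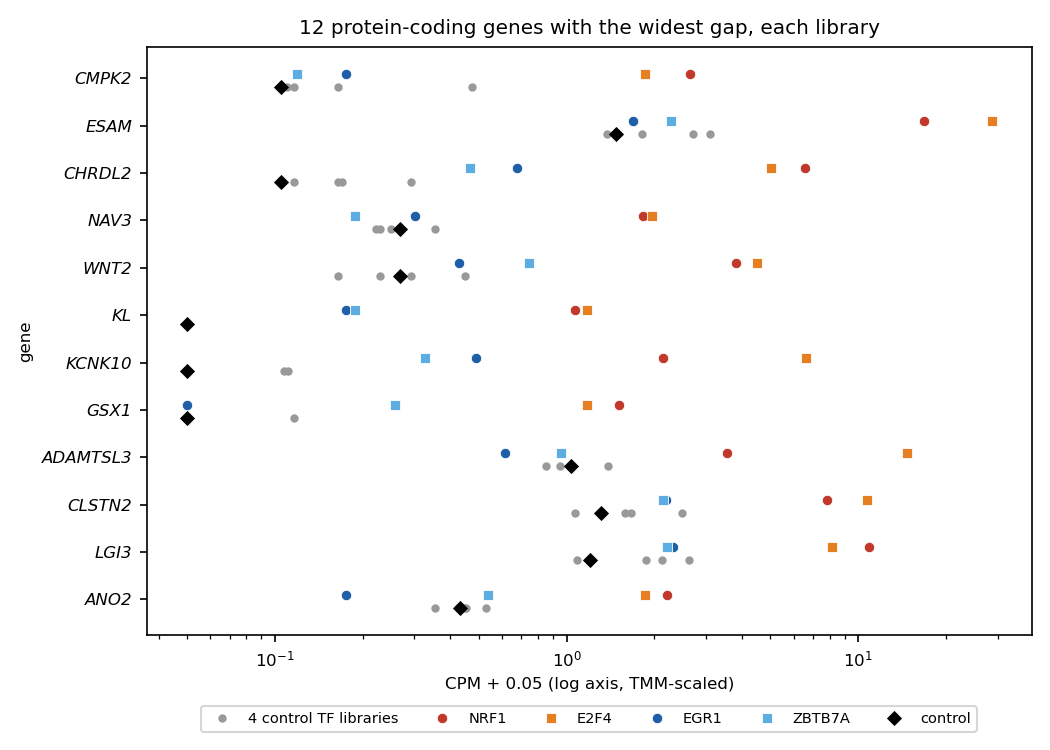
TMM-scaled CPM plus 0.05 (log axis) of the 12 protein-coding genes with the widest gap, 1 row a gene. Each symbol is 1 library, colored for the 4 CLB_TFs, black for the control and gray for the 4 control TFs (hidden behind the control symbol for KL, where all 5 are at 0). The NRF1 and E2F4 symbols lie to the right of all others in every row, and in ESAM they reach 16.7 and 28.6 CPM.

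Potassium channels and neuronal receptors each held 5 of the genes apart. Potassium channels set the resting potential and repolarize excitable cells, and 42 of them reached 1 CPM on a side. Of these, 21 (50%) lay without overlap higher with NRF1 and E2F4, where all genes gave 19.8%, and 1 (2.4%) higher with the zinc finger side. Of the 21, 4 reached 1 CPM through NRF1 and E2F4 only, so that the filter fixed their direction. Among the 36 channels at 1 CPM on both sides 17 lay in that direction. The share of all genes at 1 CPM on both sides was not computed, so the 17 have no background beside them. The median log2 fold change of the list was -0.292, beside -0.015 over all genes tested, and -0.130 without the NRF1 library. Of 53 channels tested, 13 had an unadjusted p below 0.05 toward NRF1 and E2F4 and 0 toward the zinc finger side, beside 4.78% and 0.911% of all genes, and none passed adjustment.

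The 5 channels apart came from several families. KCNK10 (TREK-2), a leak channel of the tandem-pore family, had 33 counts with NRF1 and 117 with E2F4 against 7 with EGR1 and 4 with ZBTB7A. It was at 0 in the control and at most 1 in the control TF libraries, and all 4 CLB_TF libraries stood above the rest. KCNK12, a tandem-pore subunit known to be mostly silent alone, measured 7.23, 5.52, 1.70 and 2.16 CPM with NRF1, E2F4, EGR1 and ZBTB7A, against 0.219 CPM in the control and 0.426 to 1.40 CPM in the control TF libraries. KCNA7 is a voltage-gated channel of the Shaker family. It had 43 and 27 counts against 5 and 6, and the NKX2-8 library reached 12.

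KCNQ3, a subunit of the M-current channel of neurons, had 28 counts with NRF1, 33 with E2F4, 10 with EGR1 and 8 with ZBTB7A, and 4 in the control. KCNMA1, the large-conductance channel gated by calcium and voltage, measured 6.35, 10.2, 2.64 and 3.06 CPM in the same order and 2.35 CPM in the control. The zinc finger libraries were near the control for KCNMA1 and above it for KCNK12 and KCNK10. KCNK13, chosen after its values were seen as the close relative of KCNK12, had 114 and 131 counts against 60 and 51, and 29 in the control, a step of the same order that fell short of the 2-fold gap.

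Receptors of neuronal transmitters showed the same direction. Of 23 neuronal G protein-coupled receptors at 1 CPM on a side, 12 (52.2%) were without overlap higher with NRF1 and E2F4 and 1 (4.3%) with the zinc finger side, beside 19.8% and 17.7% of all genes. Of the 12, 3 reached 1 CPM through NRF1 and E2F4 only, so that the filter fixed their direction. Among the 18 receptors at 1 CPM on both sides 9 lay in that direction, again with no share of all genes computed for that filter. The median log2 fold change of the list was -0.454, but -0.0954 without the NRF1 library, which carried most of it. Of 29 members tested, 11 had an unadjusted p below 0.05 toward NRF1 and E2F4 and 1 toward the zinc finger side, beside 4.78% and 0.911% of all genes.

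HRH3, the histamine autoreceptor, measured 8.25 CPM with NRF1, 17.1 CPM with E2F4, 2.77 CPM with EGR1 and 2.43 CPM with ZBTB7A. The control was at 0.0547 CPM (1 count) and the control TFs at 0.304 to 0.598 CPM, so the zinc finger libraries were the next highest after NRF1 and E2F4. The neurotensin receptor NTSR1 followed the same order, with 73, 150, 26 and 24 counts in NRF1, E2F4, EGR1 and ZBTB7A, 2 in the control and at most 8 in the control TF libraries. For both receptors the groups formed 3 levels without overlap.

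The serotonin receptor HTR7, which couples to Gs, had 33 and 73 counts against 7 and 11, with 7 in the control. GRM8, a presynaptic metabotropic glutamate receptor, had 42 and 50 counts against 17 and 13, with 12 in the control. GABBR2 is the subunit through which the GABA-B receptor couples to G proteins, and it was the best counted of the 5, with 358 counts for NRF1, 458 for E2F4, 153 for EGR1, 159 for ZBTB7A and 133 in the control. Its log2 fold change of -1.23 ± 0.16 (SE) had an adjusted p of 0.344 in the quasi-likelihood test. GABBR1, the partner subunit that binds GABA (named after its values were seen), differed little, at -0.16 ± 0.12 (SE). KISS1R, also named after its values were seen, went the other way through EGR1 alone, with 765 counts there and 61 to 92 in the other 3 libraries of the sides.

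Ligand-gated channels of the same transmitters held 1 gene apart. Of 13 ionotropic glutamate and GABA receptor genes at 1 CPM, 3 (23.1%) were without overlap higher with NRF1 and E2F4 and 2 (15.4%) with the zinc finger side, both shares near those of all genes, at a median log2 fold change of -0.146. Of the 3, 1 reached 1 CPM through NRF1 and E2F4 only, so that the filter fixed its direction. GRIK3, a kainate receptor subunit, was the 1 apart. It measured 3.30 CPM with NRF1, 9.74 CPM with E2F4, 0.314 CPM with EGR1 and 1.04 CPM with ZBTB7A, and 0.164 CPM in the control. For neuronal cytoskeleton, vesicle and repressor genes the shares without overlap were 17.4% and 13.0% of 23, with a median log2 fold change of -0.022. Among those higher with NRF1 and E2F4, 1 reached 1 CPM through NRF1 and E2F4 only.

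Wnt genes held 2 members apart, both secreted. The Wnt ligand WNT2 had 59 counts with NRF1 and 79 with E2F4 against 6 with EGR1 and 10 with ZBTB7A, and 2 to 6 counts in the 5 other libraries. The antagonist SFRP5, which sequesters Wnt ligands, had 67 and 150 counts against 27 and 14, with 21 in the control. Of 34 Wnt ligands, receptors and antagonists at 1 CPM, 11 (32.4%) were without overlap toward NRF1 and E2F4 and 6 (17.6%) toward the zinc finger side, beside 19.8% and 17.7% of all genes. Of the 11, 2 reached 1 CPM through NRF1 and E2F4 only, so that the filter fixed their direction. The median was -0.191, and -0.0819 without the NRF1 library. The frizzled receptors FZD3 and FZD6 and the ligands WNT5A, WNT5B and WNT6 were among those with the zinc finger libraries higher, at log2 fold changes of 0.09 to 0.66.

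Among collagens, COL15A1, a basement membrane collagen, had 260 counts with NRF1 and 93 with E2F4 against 29 with EGR1 and 14 with ZBTB7A, and 2 in the control. COL6A5, a chain of the beaded-filament collagen, had 31 and 29 counts against 11 and 8, with 10 in the control. The list gave 10 of 29 members (34.5%) without overlap toward NRF1 and E2F4 and 3 (10.3%) toward the zinc finger side, at a median of -0.116. That median was 0.0760 without the NRF1 library, so its direction rested on that library. Of the 10 members toward NRF1 and E2F4, 2 reached 1 CPM through NRF1 and E2F4 only, so that the filter fixed their direction.

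HBA1, an alpha globin gene, was the erythroid marker apart, with 26 and 21 counts against 6 and 5 and 1 in the control. The control TF libraries had 4 to 7 counts, a range that in CPM held both zinc finger libraries. Its near-identical copy HBA2 can share its reads, so the gene is uncertain. The beta and gamma globins HBB, HBG1 and HBG2, of which the gamma genes are the known targets of ZBTB7A repression, were at 0 in all 9 libraries.

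The multiciliated cell programme, in which E2F4 takes part, had no gene apart by 2-fold. Of 14 members at 1 CPM, 7 (50%) were without overlap toward NRF1 and E2F4 and 0 toward the zinc finger side, beside 19.8% and 17.7% of all genes. Of the 7, 1 reached 1 CPM through NRF1 and E2F4 only, so that the filter fixed its direction. The median log2 fold change was -0.616, but -0.272 over members with at least 10 counts in all 4 libraries and -0.294 with no filter on low counts. The member with the largest difference, CDC20B, had 271 counts with E2F4 but 15 with NRF1, against 4 and 6 in the zinc finger libraries, 8 in the control and 7 to 13 in the control TF libraries. MYB, CCNO and MCIDAS, named after their values were seen and known to act in or upstream of centriole amplification, showed a like order. MYB had 745 counts with E2F4, 295 with NRF1, 145 with EGR1, 168 with ZBTB7A and 191 in the control. The E2F4 library carried most of this difference, and for FOXJ1, the master factor of motile cilia, the sides overlapped, with 87 counts with E2F4, 6 with NRF1, 13 with EGR1 and 11 with ZBTB7A.

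For 10 of the 49 genes the control library lay between the sides, so that both NRF1 and E2F4 were above it and both zinc finger libraries below. NTRK2, the receptor for BDNF, is on chromosome 9 at 87283466-87641985 (GRCh37, plus strand). It measured 9.84 CPM with NRF1, 10.7 CPM with E2F4, 3.27 CPM with EGR1, 4.17 CPM with ZBTB7A and 4.32 CPM in the control. The control TFs ran from 3.34 to 4.50 CPM, a range that held ZBTB7A. NRF1 and E2F4 were farther from the control than either zinc finger library was.

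Other genes of this group had the control between the sides as well. ENO3, the muscle enolase, measured 12.9 and 11.7 CPM against 5.34 and 4.52 CPM, with 6.13 CPM in the control and 6.01 to 7.24 CPM in the control TF libraries, which all lay above both zinc finger libraries. MESP2, a factor of somite segmentation, had 107 and 99 counts against 31 and 34, with 57 in the control. STX11, a SNARE protein of cytotoxic granule release, had 35 and 61 counts against 11 and 14, with 23 in the control. The ligand gene TGFB2 had 40 and 21 counts against 7 and 7, with 13 in the control, and its counting interval reached below 1. CCDC92B had 37 and 45 counts against 8 and 15, with 24 in the control. ADAMTSL3 and the lncRNA SLCO5A1-AS1 also had the control between the sides, the former at 0.985 CPM.

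**Figure D3:**
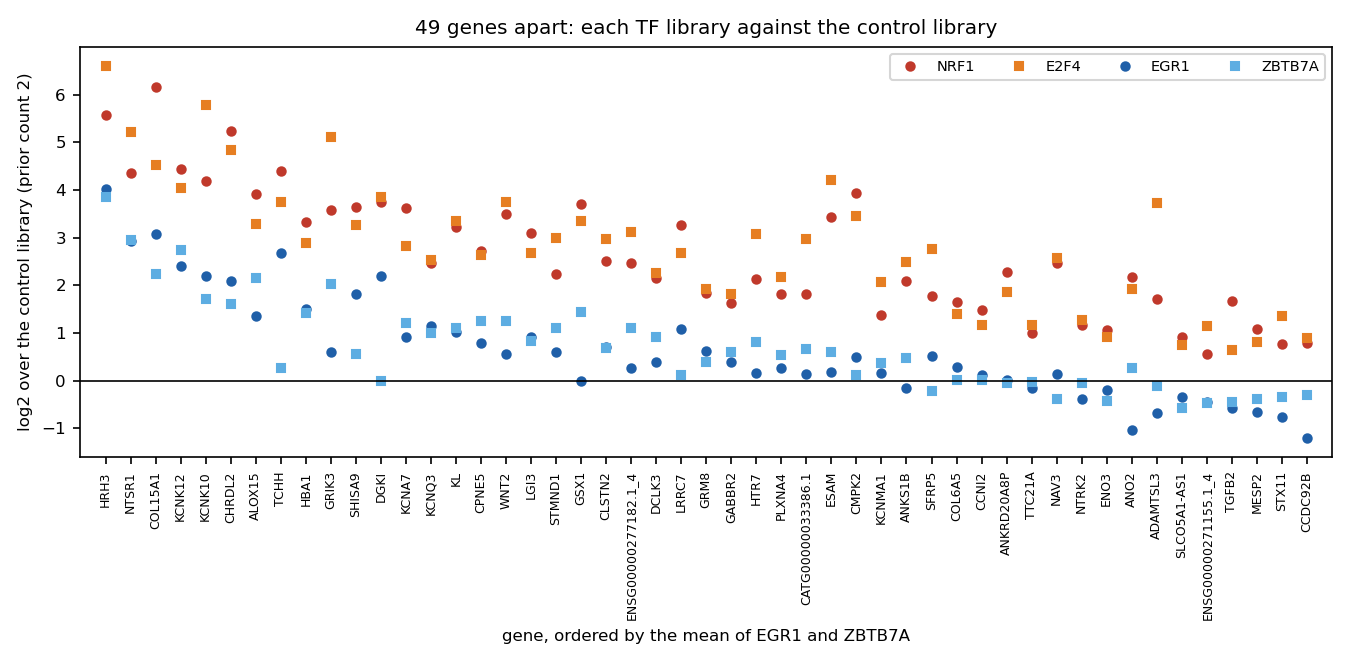
Log2 difference of the 4 CLB_TF libraries from the control library (prior count 2) for the 49 genes apart with NRF1 and E2F4 higher, ordered by the mean of EGR1 and ZBTB7A. Red circles and orange squares (NRF1, E2F4) lie above blue circles and light blue squares (EGR1, ZBTB7A) in every column, and the zinc finger symbols run from 4.03 above the line of the control to 1.20 below it.

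The zinc finger libraries were above all 5 other libraries for 16 of the 49 genes, HRH3, NTSR1, KCNK12, CHRDL2 and COL15A1 among them. Several of the 16 had only a few counts in the zinc finger libraries, KL, LRRC7 and SHISA9 included, and for those 3 this place was within counting error. For the rest of the 16 no counting interval was computed for this place, and some values were close. CHRDL2 had 6 counts with ZBTB7A against 4 with RORA, and GRM8 had 13 with ZBTB7A against 12 in the control. KCNMA1 measured 2.64 CPM with EGR1 against 2.63 CPM with HOXA11. The control was inside the range of the zinc finger pair for 7 genes and below both for 32.

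The remaining genes of the 49, named after their values were seen, had low counts as well. Among genes of synapse and axon, the scaffold ANKS1B had 54 counts with NRF1 and 81 with E2F4 against 10 with EGR1 and 15 with ZBTB7A, and 13 in the control. The semaphorin receptor PLXNA4 had 115 and 165 counts against 38 and 42, with 36 in the control, at a log2 fold change of -1.65 ± 0.26 (SE). For both, the zinc finger libraries lay close to the control.

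The postsynaptic protein LRRC7 (densin) had 25 and 18 counts against 4 and 1, and the AMPA receptor auxiliary protein SHISA9 had 33 and 28 against 8 and 2, each with 1 in the control. The diacylglycerol kinase DGKI had 24 and 29 counts against 7 and 0. In these 3 genes EGR1 and ZBTB7A differed from each other within a few counts, so their place relative to the control was not settled at this depth. The calcium-dependent membrane-binding protein CPNE5 had 73 and 78 counts against 18 and 23, with 11 in the control.

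TCHH, trichohyalin of the hair follicle, was the gene in which the zinc finger libraries differed most by count, with 44 with EGR1 and 6 with ZBTB7A against 148 with NRF1 and 106 with E2F4, and 6 in the control. The lipoxygenase gene ALOX15 had 27 and 19 counts against 3 and 6, and 0 in the control. The control TF libraries had 3 to 11 counts, so the zinc finger libraries lay within their range in CPM. The ciliary transport gene TTC21A had 114 and 144 counts against 51 and 50, with 65 in the control, which lay between the sides in CPM as well. STMND1 had 72 and 138 counts against 22 and 29, DCLK3 18 and 22 against 4 and 6, and CCNI2 49 and 44 against 18 and 15. The pseudogene ANKRD20A8P, which has near-identical copies and is therefore uncertain, had 41 and 34 counts against 7 and 6.

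At the 2-fold gap the lncRNAs were apart at about the share of all genes. At 1.5-fold they passed more often than mRNAs in both directions, and at any gap they lay mostly toward NRF1 and E2F4. Of 1041 other lncRNAs at 1 CPM on a side, 4 (0.384%) were apart toward NRF1 and E2F4, beside 44 of 12592 mRNAs (0.349%), and of 221 conserved lncRNAs none was, where the share of all genes (0.35%) would give under 1 gene. All 4 had a zinc finger library below 1 CPM, so that the filter fixed their direction. At a gap of 1.5-fold, 6 of the 221 lay toward NRF1 and E2F4 and 1 toward the zinc finger side, beside 1.13% and 0.143% of all genes. Of the 1041 other lncRNAs 26 and 6 did, and of the 12592 mRNAs 122 and 10. The shares of both lncRNA classes were thus above those of mRNAs in both directions. For conserved lncRNAs the share toward the zinc finger side rests on 1 gene. At any gap, of the 221 and 1041 lncRNAs together, 352 lay toward NRF1 and E2F4 and 141 toward the zinc finger side. Of all 13981 genes at 1 CPM on a side 2774 (19.8%) and 2474 (17.7%) did. How many of these lncRNAs reached 1 CPM through 1 side only was not computed. The median log2 fold change was -0.106 for conserved and -0.113 for other lncRNAs against -0.008 for mRNAs. SLCO5A1-AS1, the lncRNA with a symbol, had 31 counts with NRF1 and 31 with E2F4 against 12 with EGR1 and 9 with ZBTB7A, and 18 in the control. By its name it is antisense to a coding gene, and whether reads were counted by strand is unknown here. YPEL3-DT, a conserved lncRNA just outside the threshold, had 51 and 60 counts against 22 and 23, with 33 in the control.

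The 3 lncRNAs apart without a symbol had 17 to 127 counts with NRF1 and E2F4. ENSG00000277182.1_4 had 71 and 127 counts against 14 and 24, CATG00000033386.1 had 17 and 45 against 4 and 6, and ENSG00000271155.1_4 had 20 and 35 against 9 and 8. For the last 2 the counting interval of the nearest pair reached below 1.

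Genes around the threshold had similar values on either side of it. Just inside were an lncRNA without a symbol at a gap of 2.02-fold and KCNMA1 at 2.03-fold. Just outside were PTGER2, a prostaglandin E2 receptor, at 1.99-fold (50 and 116 counts against 22 and 22) and PAX1 at 1.96-fold (31 and 56 against 15 and 13).

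A further 109 genes, of which 78 were mRNAs, lay between 1.5-fold and 2-fold toward NRF1 and E2F4, and the examples here were chosen after their values were seen. SPHK1, a sphingosine kinase, was well counted, with 939 counts for NRF1 and 1692 for E2F4 against 449 for EGR1 and 473 for ZBTB7A. The control had 379 and the control TF libraries 358 to 411, so the zinc finger libraries were slightly above all the others. Its log2 fold change was -1.35 ± 0.22 (SE). ALDH1A3, which makes retinoic acid, had 315 and 370 counts against 99 and 156, with 120 in the control. NOTUM, a secreted enzyme that inactivates Wnt ligands, had 302 and 581 counts against 161 and 138, with 116 in the control. The calcium-binding protein gene NECAB2 had 201 and 381 counts against 75 and 98, with 70 in the control.

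The 6 conserved lncRNAs of this range were low. LINC01896 had 60 counts with NRF1 and 107 with E2F4 against 36 with EGR1 and 30 with ZBTB7A, and 38 in the control. LETR1 had 39 and 29 counts against 16 and 13, and HOXD-AS2 had 54 and 38 against 22 and 19, each with 38 in the control. For LETR1 and HOXD-AS2 both zinc finger libraries were below the control. E2F4 was also below it for LETR1, at 1.63 against 2.08 CPM, and near it for HOXD-AS2, at 2.14 against 2.08 CPM.

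In the opposite direction the single gene apart was an lncRNA without a symbol, CATG00000076919.1, on chromosome 5 at 103558209-103652931 (GRCh37, plus strand). It had 22 counts with EGR1 and 19 with ZBTB7A against 9 with NRF1 and 8 with E2F4. With NRF1 and E2F4 at 0.571 and 0.451 CPM, it reached 1 CPM through the zinc finger side only. The filter thus fixed its direction. The control had 22 counts and the control TF libraries 13 to 19, so the zinc finger libraries were near the control and NRF1 and E2F4 were below all others. The counting interval of the nearest pair ran from 0.997 to 5.81 and so reached below 1.

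The 20 genes higher by 1.5-fold with the zinc finger side (named here after their values were seen) included 10 mRNAs, and for 3 of the 20 the counting interval stayed above 1. SCRT1, a neuronal zinc finger repressor of transcription, had 168 counts with EGR1 and 81 with ZBTB7A against 13 with NRF1 and 55 with E2F4. It was at 2 in the control and 4 to 24 in the control TF libraries, so all 4 CLB_TFs stood above the control. VASN, a membrane protein that binds TGF-beta, had 81 and 91 counts against 41 and 58, with 26 in the control. The hormone precursor gene POMC had 34 and 26 counts against 17 and 14, and 21 in the control. For all 20 the control was below both zinc finger libraries, for 12 all 5 other libraries were, and for 5 all 5 other libraries were above both NRF1 and E2F4.

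Larger differences toward the zinc finger side were in 1 library of it. With EGR1 alone on the side, 107 genes were at least 2-fold above both NRF1 and E2F4, and with ZBTB7A alone 23 genes were. Examples for EGR1 follow. ARC, a synaptic immediate early gene that EGR1 is known to bind, had 7046 counts with EGR1, 207 with ZBTB7A, 203 with NRF1 and 215 with E2F4. The keratin gene KRT17 had 387 counts with EGR1 and 7 to 12 in the other 3 libraries. JUNB had 2823 counts with EGR1 and 769 to 860 in the others. These genes therefore did not separate the sides by 2-fold, since the ZBTB7A library lay with NRF1 and E2F4.

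Several lists of mitochondrial, proteasome and sterol genes showed small differences toward the zinc finger side. Of 39 nuclear subunits of respiratory complexes II to V and cytochrome c, 12 (30.8%) were without overlap higher with EGR1 and ZBTB7A and 0 with NRF1 and E2F4, beside 17.7% and 19.8% of all genes. For nuclear subunits of complex I the counts were 12 and 2 of 35, for mitochondrial ribosomal proteins 22 and 6 of 76, for proteasome subunits 11 and 1 of 31 and for cholesterol biosynthesis 8 and 0 of 22. The medians of these 5 lists were 0.041 to 0.103 in log2, beside -0.015 for all genes, and no gene of them was apart by 1.5-fold or passed adjustment. Cytochrome c (CYCS), a textbook NRF1 target, had 3632 raw counts with NRF1, 4108 with E2F4, 4047 with EGR1 and 3759 with ZBTB7A. The library totals were 14706961, 18050824, 15925605 and 14177970 counts in that order, so the raw counts do not show the direction. After scaling, the log2 fold change of CYCS was 0.16 ± 0.08 (SE). Without the NRF1 library the 5 medians were 0.0151 to 0.0664. Other housekeeping lists varied around the 17.7% of all genes toward the zinc finger side. That direction held 14 of 75 cytoplasmic ribosomal proteins (18.7%) and 2 of 19 genes of glycolysis and glucose uptake (10.5%). It also held 8 of 29 genes of mitochondrial DNA expression and import (27.6%) and 3 of 12 heat-inducible chaperones (25.0%). Toward NRF1 and E2F4 these lists gave 4.0%, 0%, 6.9% and 8.3%, beside 19.8% of all genes. Their medians were 0.047, 0.036, 0.029 and 0.018, so a small tilt was not confined to the 5 lists.

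Cell cycle genes, the textbook targets of E2F4, held no gene apart. Of 43 DNA replication and G1/S genes, 10 (23.3%) were without overlap toward the zinc finger side and 2 (4.7%) toward NRF1 and E2F4, beside 17.7% and 19.8% of all genes, at a median of 0.018. CCNE1, cyclin E, had 1182 counts with E2F4, 526 with NRF1, 453 with EGR1 and 397 with ZBTB7A, and 593 in the control. Of 31 mitosis genes 5 and 4 were without overlap in the 2 directions, at a median of 0.046. HOX genes gave 10 of 33 (30.3%) toward NRF1 and E2F4 and 1 (3.0%) toward the zinc finger side, at a median of -0.084, with no member apart.

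**Figure D4:**
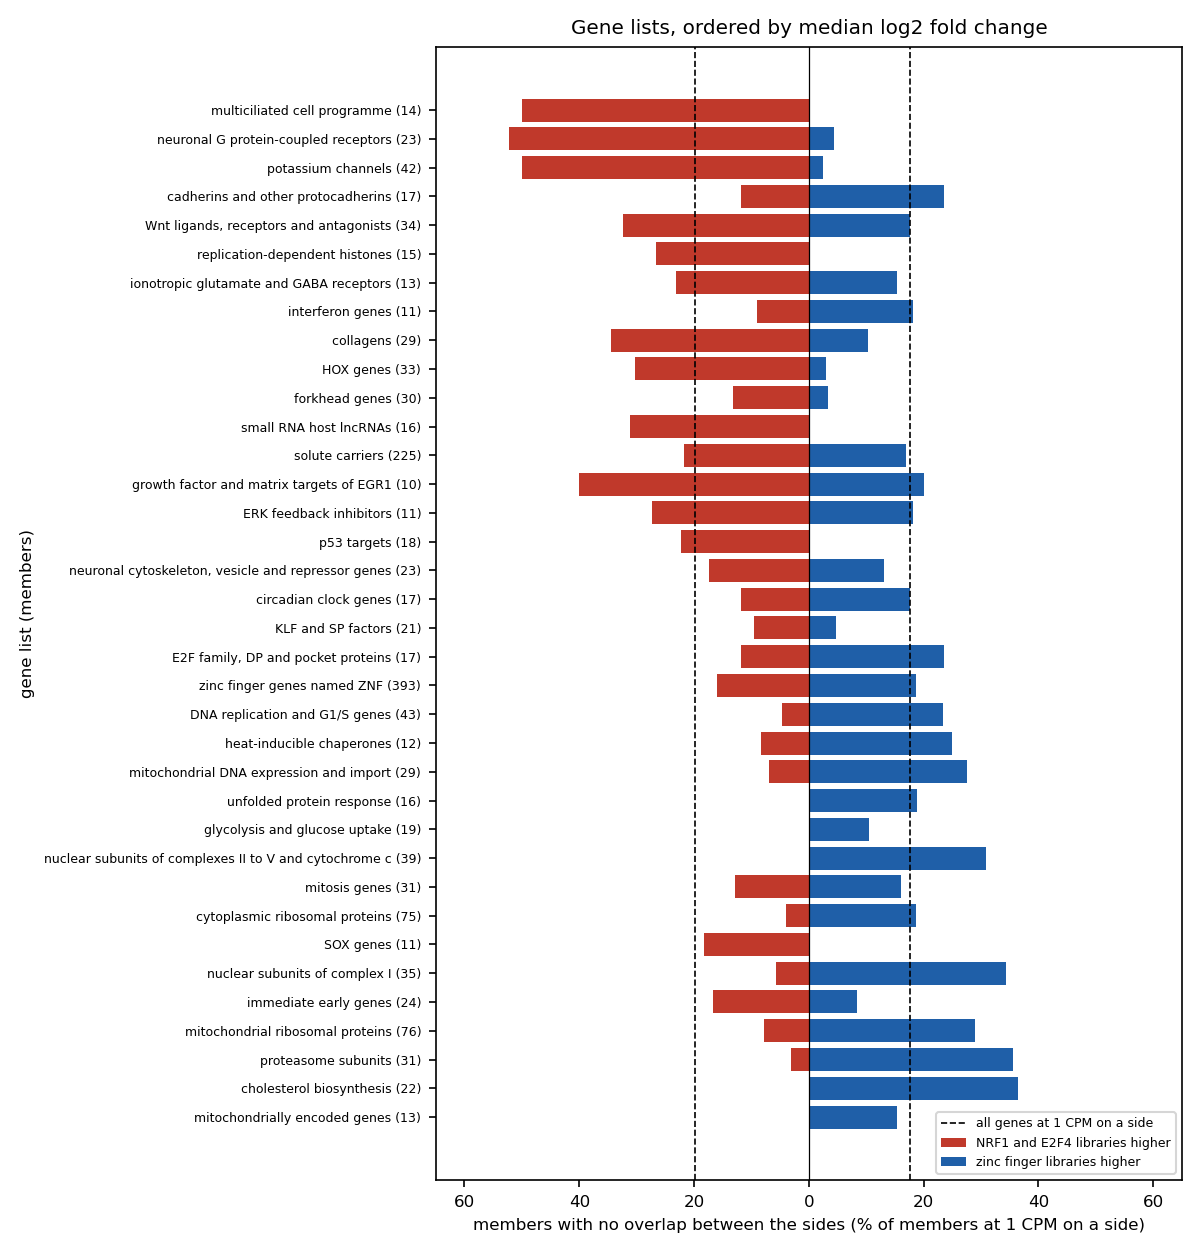
Share of list members at 1 CPM on a side whose libraries do not overlap between the sides (percent), to the left for NRF1 and E2F4 higher and to the right for the zinc finger libraries higher, for lists of at least 10 such members ordered by median log2 fold change. Dashed lines are the shares of all genes, 19.8% and 17.7%. Members that reached 1 CPM through 1 side only are included. Multiciliated, receptor and potassium channel lists reach 50% to 52.2% on the left, and proteasome and cholesterol lists 35.5% and 36.4% on the right.

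Promoters were read from RefSeq (GRCh38.p14), as 250 bases before to 50 bases after the gene start, and 33 of the 46 genes with a symbol that were apart toward NRF1 and E2F4 had an entry. Each was searched on both strands for exact words of the 4 factors. The EGR1 word GCGTGGGCG, the NRF1 word CGCATGCG and the ZBTB7A word GACCACCG matched 0 of the 33, and in all 27305 promoters they matched 0.8%, 2.2% and 0.5%. In the promoters of genes at 1 CPM on a side they matched 1.4%, 3.9% and 0.7%. Shares this low leave few or no matches to expect in 33 promoters, so the 0 does not set these genes apart. The E2F words TTCCCGCC or TTTGGCGC matched 2 of the 33 (6.1%), beside 3.8% of all promoters and 6.3% of the 10790 promoters of genes at 1 CPM on a side. The median GC content was 70.0% for the 33, 66.0% for those 10790 and 58.3% for all. An exact match is a description of these letters and not of binding. The 2 promoters with an E2F word are shown with the match in capitals, which is the reverse complement of TTCCCGCC and begins at base 289 of the window in CLSTN2 (chr3:139934935-139935234, plus strand) and at base 130 in STX11 (chr6:144150267-144150566, plus strand). The promoter of WNT2 (chr7:117323009-117323308, minus strand) is shown as 1 of the 31 without a word of any of the 4 factors, among which CMPK2 and NAV3 had wider gaps.
CLSTN2: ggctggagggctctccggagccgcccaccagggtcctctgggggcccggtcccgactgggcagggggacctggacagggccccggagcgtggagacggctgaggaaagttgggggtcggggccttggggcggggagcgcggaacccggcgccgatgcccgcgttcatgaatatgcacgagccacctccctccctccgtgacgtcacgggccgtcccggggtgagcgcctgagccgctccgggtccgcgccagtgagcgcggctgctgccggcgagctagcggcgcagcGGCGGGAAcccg
STX11: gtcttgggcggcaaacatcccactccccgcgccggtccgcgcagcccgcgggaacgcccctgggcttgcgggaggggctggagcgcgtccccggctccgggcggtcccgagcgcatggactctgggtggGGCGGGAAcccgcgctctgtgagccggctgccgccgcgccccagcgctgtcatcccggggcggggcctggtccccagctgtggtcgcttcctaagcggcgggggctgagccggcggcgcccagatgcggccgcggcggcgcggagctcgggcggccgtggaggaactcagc
WNT2: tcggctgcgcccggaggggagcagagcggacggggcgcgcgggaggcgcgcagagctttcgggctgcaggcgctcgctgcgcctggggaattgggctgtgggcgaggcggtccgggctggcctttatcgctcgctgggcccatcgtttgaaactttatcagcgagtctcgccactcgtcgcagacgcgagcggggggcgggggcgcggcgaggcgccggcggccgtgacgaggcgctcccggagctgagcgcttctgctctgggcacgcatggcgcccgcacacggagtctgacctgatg
The first pair differ in their data as well, since CLSTN2 was above the control in all 4 libraries and STX11 was below it in both zinc finger libraries.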

How the data were processed

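RNA-seq of 9 293T libraries was used. Per the labels and methods, the authors used FastQC 0.11.2 for quality, STAR 2.6.0c for alignment to GRCh37 and featureCounts 1.6.3 for gene counts from unique alignments. The deposited values are raw counts of 57163 genes, not normalized, from a directional kit. Whether counting used strand was not stated, so overlapping and antisense genes are uncertain. RNA was extracted with TRIzol per the labels and with a miRNeasy kit per the methods.

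Symbols came from GENCODE v44lift37 (35379 of 36202 Ensembl IDs found). Counts were scaled by TMM and tested with edgeR 4.0.16 (R 4.3.3; filterByExpr, quasi-likelihood, Benjamini-Hochberg at 0.05), which was tested on simulated data. Nearest-pair ratios have exact conditional binomial 95% intervals for counting error only, at totals of 14177970 to 18915400. Alternatives included DESeq2 1.42.0, other scalings, filters and priors, more libraries in the fit and leaving out libraries. All p-values measure the spread between TFs. Genes named were the 12 protein-coding genes and up to 5 lncRNAs with the widest gap in each direction, members of lists that were apart or otherwise had the largest log2 fold change, and up to 8 genes around the control. The libraries, members and lists were chosen with earlier results of these data known. Some list members are not reported here.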

Additional observations from a re-analysis of the deposited data

Results flagged for a closer look

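For 10 of the 49 genes both NRF1 and E2F4 were above the control library and both zinc finger libraries were below it. This difference in direction was not tested against repeats of the control, which had 1 library. For the 8 of them named by the rule above, the log2 fold changes (zinc finger minus NRF1 and E2F4) were -3.62 for ADAMTSL3, -1.99 for TGFB2, -1.77 for STX11, -1.66 for CCDC92B, -1.52 for MESP2, -1.46 for NTRK2, -1.42 for SLCO5A1-AS1 and -1.32 for ENO3. In these 8 genes at least 1 of the control TF libraries was also below the control.

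Among the 4 control TF libraries, 1 library stood apart from the others by gap over range for 3 of the 34 named genes, where chance gives about 1 in 20. The RORA library was high for CMPK2 (0.849, with 7 counts against 1 or 2), and the NKX2-8 library for KCNA7 (0.848, with 12 counts against at most 2). For GSX1 the value of 1 came from a single count in the NKX2-8 library against 0 in the others and shows no difference at this depth.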

How the results depend on the processing

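No paired analysis was possible because the labels carry no replicate numbers and each TF has 1 library. Log2 fold changes of the 34 named genes kept their direction in every alternative run. Counts of genes apart (NRF1 and E2F4 higher, then zinc finger higher; 49 and 1 as reported) were 58 and 0 with library totals, 75 and 8 at a minimum of 0.5 CPM, 14 and 0 at 5 CPM, 158 and 20 at a gap of 1.5-fold, 2774 and 2474 at any gap, 56 and 2 at a prior count of 0.5, 38 and 0 at a prior count of 5, and 45 and 0 with the counting interval above 1, which was added after the data were seen. The same for lncRNAs (4 and 1) was 6 and 0, 19 and 3, 0 and 0, 32 and 7, 352 and 141, 6 and 1, 1 and 0, and 2 and 0. With 1 library left out, and so 1 on its side, they ranged from 108 to 598 and from 6 to 107 (lncRNAs 21 to 199 and 3 to 30); the 598 was without E2F4 and the 107 without ZBTB7A. These alternatives set another threshold or drop a library by construction.

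Genes called at an adjusted p below 0.05 (0 and 0) were 471 and 60 with no filter on low counts, 35 and 1 in the DESeq2 Wald test, 14 and 0 with 8 TF libraries in the fit and 18 and 0 with 9, and 0 to 512 and 0 to 52 with 1 library left out, the lone library being assumed to vary like the others. Of the 14, 10 were apart, namely ESAM, CHRDL2, WNT2, HRH3, CLSTN2, LGI3, PLXNA4, NTRK2, ENO3 and GABBR2. The cause was not tested. Medians of lists moved most without NRF1, to -0.0954 for neuronal G protein-coupled receptors, -0.130 for potassium channels and -0.0819 for Wnt genes. That of the multiciliated programme was -0.272 at 10 counts in all 4 libraries and -0.294 with no filter. Depth limits the genes under 10 counts in both zinc finger libraries, 17 of the 49.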
